A study of Saccharomyces cerevisiae with 24 samples.

Results

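The 10 genes described here make, lengthen, desaturate, carry and activate fatty acids in Saccharomyces cerevisiae. They are ACC1, HFA1, FAS1, FAS2, OLE1, ELO1, ELO2, ELO3, ACB1 and FAA1, chosen by symbol from the 5449 yeast genes that the arrays measured. All 10 were measured, each by 1 probe set, and all lay above the dim level of 5.59 that probe sets for other organisms set. Every level and difference below is on a log2 scale.

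Transcripts were measured on 24 Affymetrix arrays, 1 sample of total RNA per array, from yeast at steady state in chemostats on minimal medium. A Reference strain and an snf1 mutant were each grown under carbon (C) or nitrogen (N) limitation, with inositol and choline at a low or a high level, which gives 8 groups of 3 arrays. The study asked how inositol-choline and loss of SNF1 act on the transcriptome under both limitations. The sources used here do not give the strain background, the amounts of inositol and choline or the dilution rates, and the labels do not say whether the 3 arrays of a group come from different cultures. The p-values therefore measure the spread between these arrays, which may be technical. Each array reads a whole population, so fewer cells making a transcript cannot be told apart from less transcript per cell.

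Fatty acid synthesis starts when acetyl-CoA carboxylase makes malonyl-CoA, in the cytosol by Acc1 and in mitochondria by Hfa1. Fatty acid synthase, built from the Fas1 and Fas2 subunits, turns acetyl-CoA and malonyl-CoA into long saturated acyl-CoA, Ole1 puts a double bond into it, and the elongases Elo1, Elo2 and Elo3 extend it. Acb1 binds acyl-CoA in the cytosol, and Faa1 activates free fatty acids to acyl-CoA. ACC1, FAS1 and FAS2 are known targets of the Ino2-Ino4 activator of phospholipid genes, whose activity the repressor Opi1 lowers when inositol is plentiful. Snf1 kinase is known to phosphorylate and inhibit the Acc1 enzyme, which an array of transcripts does not read.

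The labels and the arrays were checked first. SNF1 itself lay between 4.95 and 5.02 on the 12 mutant arrays, under the dim level, and between 7.09 and 8.47 on the 12 Reference arrays. For 6 mutant arrays titled as N-limited, the description names C limitation; the nitrogen-repressed gene DAL5 was at 10.85 to 11.72 on them, against 6.83 to 7.13 on all C-limited arrays, and the title was kept. RNA quality moved with the inositol-choline level. The signals of the spike-in controls dap and bioB also reached higher at the high level, with overlapping ranges. On low-level arrays dap lay at 5.44 to 5.95 and bioB at 6.48 to 6.87. On high-level arrays they lay at 5.63 to 7.28 and 6.36 to 8.19. The excess of 3' over 5' signal was taken over 7 control genes. It was 0.476 to 0.681 on the 12 low-level arrays and 0.694 to 2.68 on the 12 high-level arrays. The inositol-choline level and this signal therefore cannot be told apart. The signal also differed without overlap in some comparisons of strain and limitation. At the high level the C-limited Reference read 0.694 to 0.785, below the C-limited mutant (0.933 to 1.04) and the N-limited Reference (0.853 to 2.67). At the low level the N-limited mutant read 0.634 to 0.681, above the N-limited Reference (0.516 to 0.610) and the C-limited mutant (0.515 to 0.606). There strain or limitation cannot be told apart from it either. A pair of arrays stood apart at 2.67 and 2.68. They were replicate 1 of the N-limited Reference and replicate 1 of the N-limited mutant, both at the high level. Replicate 2 of these groups came next at 1.33 and 1.42, above the remaining arrays, which reached 1.04. Both stayed in the fits without the pair. The median gene had an SD of 0.186 and 0.184 in those groups and of 0.033 to 0.065 in the other 6. Since 1 estimate of the spread per gene was shared by all groups, counts without the pair, and from the compared arrays alone, are given where they differ.

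ELO1 moved most among the 10, with a range of 1.58 over the 8 group means, wider than that of 94.3% of all genes. FAA1 followed with 1.22 and FAS1 with 0.94, and ACC1 had the narrowest range, 0.39, against 0.54 for the median gene. The plot of levels by array shows each gene on an axis of the same span. HFA1, OLE1 and FAS2 scatter most within groups, with residual SDs of 0.187, 0.162 and 0.163.

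**Figure D1:**
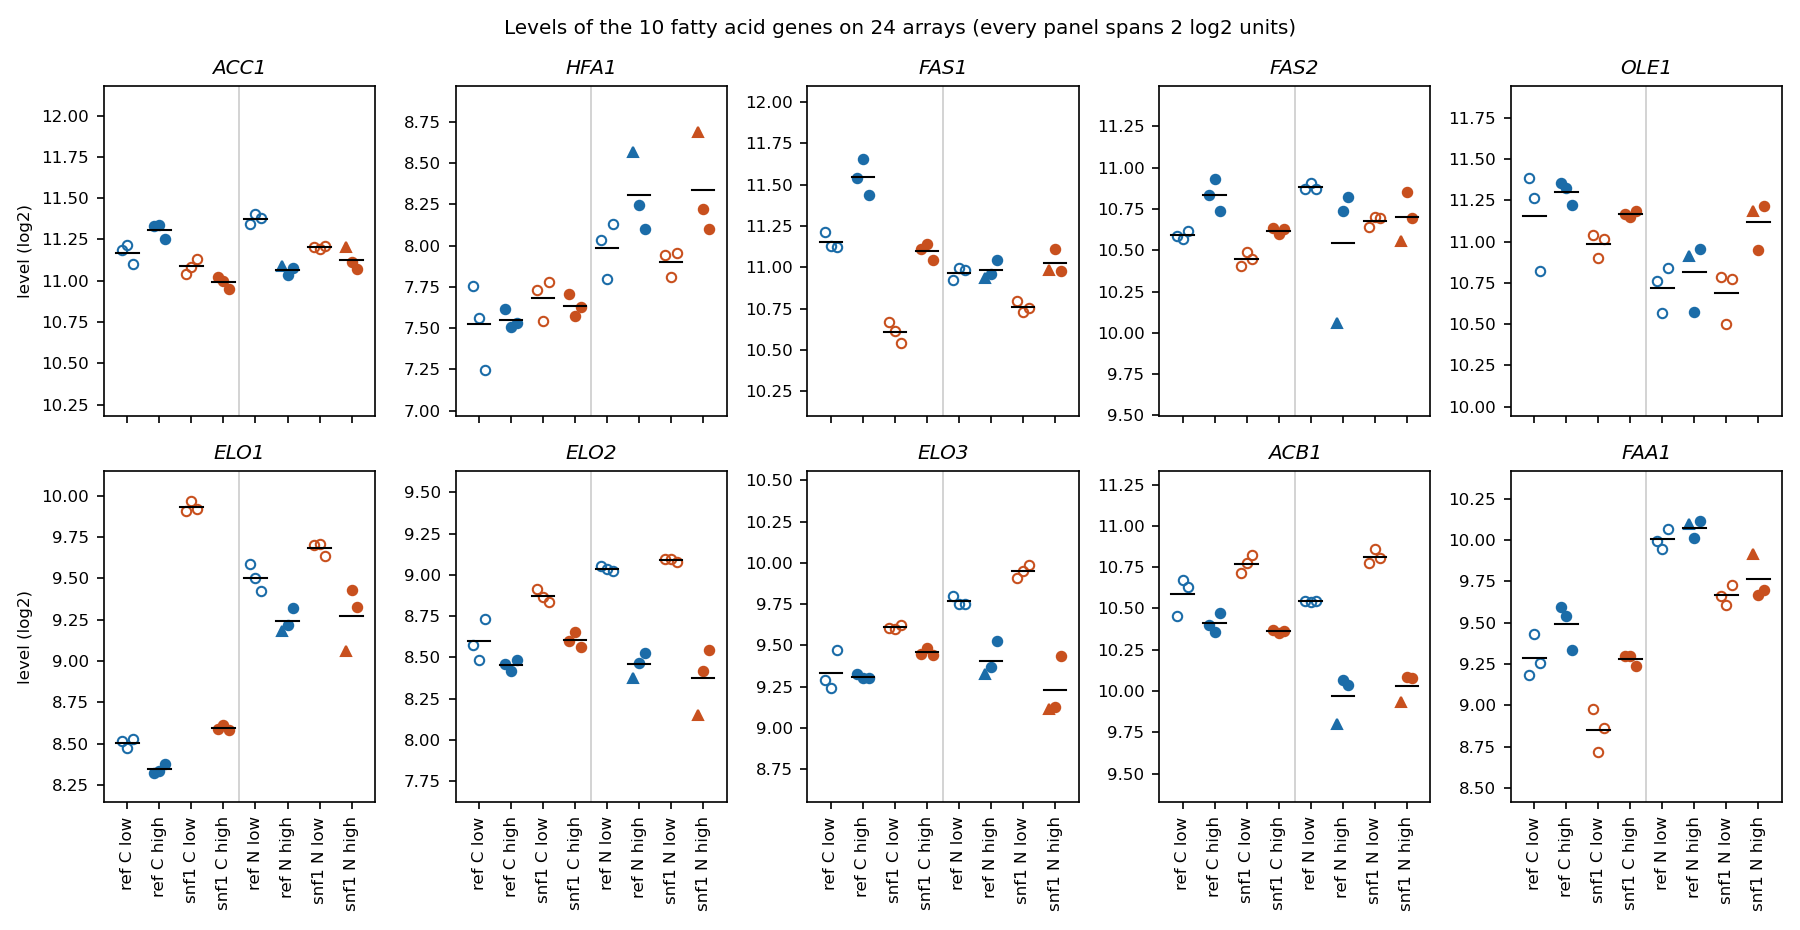
Level (log2) of each of the 10 genes on every array, by group of strain, limitation and inositol-choline level; blue is the Reference strain and orange the snf1 mutant, open marks are the low and filled marks the high level, triangles are the pair of arrays of low 5' signal, and bars are means of 3 arrays. Every panel spans the same log2 distance, and ELO1 in the C-limited mutant at the low level stands at 9.91 to 9.97, above its 3 other C-limited groups.

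The first question was how the high level of inositol and choline differed from the low in each of the 4 backgrounds. That difference cannot be told apart from the one in RNA quality. Elongation and acyl-CoA binding genes were lower at the high level wherever they passed the test, and FAS1 was higher in 3 backgrounds. In the C-limited Reference, 2 of 10 genes were called higher (ACC1 and FAS1) and none lower, where 14.8% of all genes were called, 7.85% higher and 6.96% lower. The N-limited Reference had 6 called, all lower (ACC1, FAS2, ELO1, ELO2, ELO3 and ACB1), where 31.5% of all genes were called, 16.6% higher and 14.9% lower. In the C-limited mutant 5 were called, FAS1 and FAA1 higher and ELO1, ELO2 and ACB1 lower, with 23.4% of all genes called, 10.2% higher and 13.2% lower. The N-limited mutant had 7, with HFA1, FAS1 and OLE1 higher and ELO1, ELO2, ELO3 and ACB1 lower, with 37.2% of all genes called, 19.5% higher and 17.7% lower. The median difference of the 10 genes was 0.08, -0.29, -0.07 and -0.03 in these backgrounds in turn, against -0.02, 0.03, -0.01 and 0.02 for all genes. A call is a Benjamini-Hochberg adjusted p under 0.05 over all 5449 genes, from limma. Without that pair, 7 of 10 were called in the C-limited Reference (48.1% of all genes) and 8 in the C-limited mutant (53.3%). From the compared arrays alone, the N-limited counts were 2 in the Reference (2.57% of all genes), ELO2 and ACB1, and 3 in the mutant (13.5%), ELO2, ELO3 and ACB1. In the C-limited Reference 1 was called without replicate 2 of the low level and 4 without replicate 1 of the N-limited Reference at the high level.

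**Figure D2:**
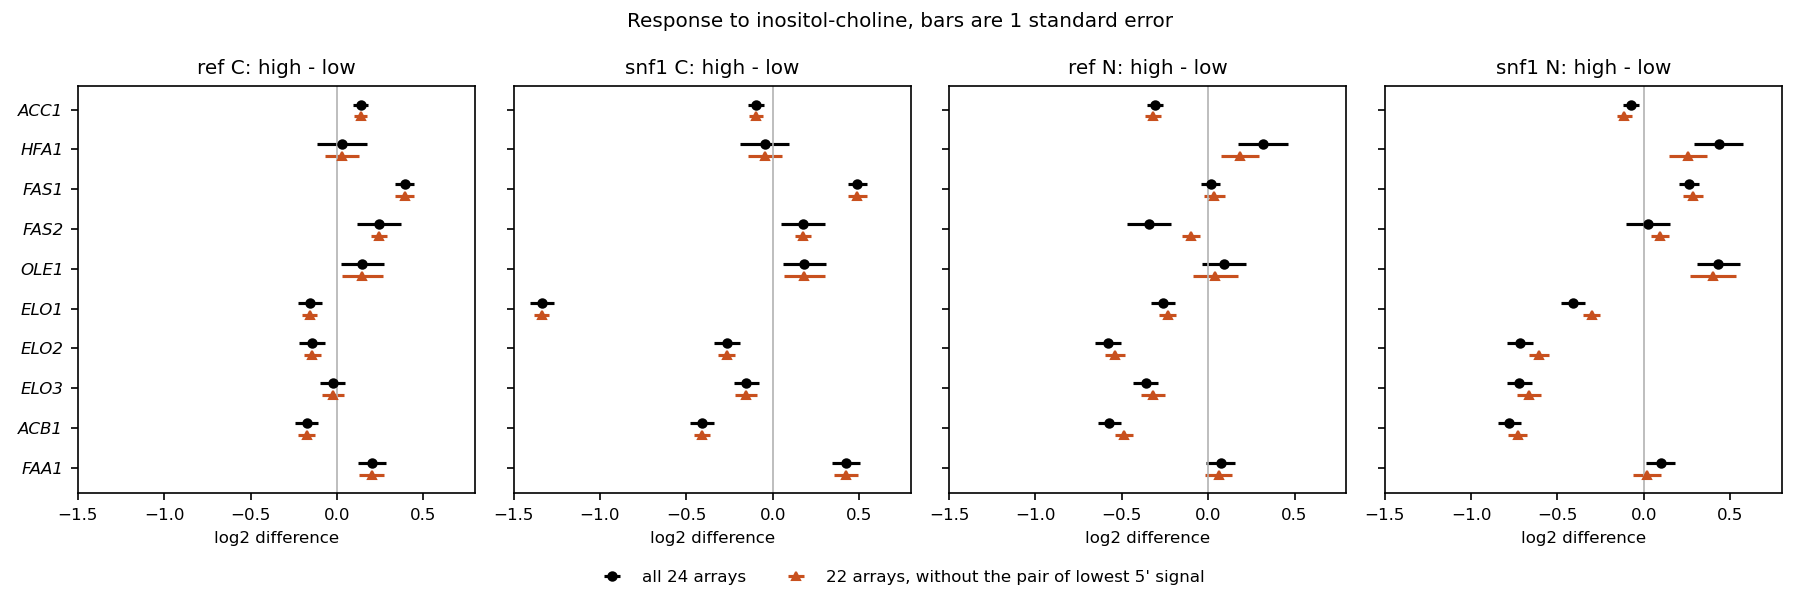
Difference between the high and the low inositol-choline level (log2, high minus low) of each gene in the 4 backgrounds, with bars of 1 standard error; circles use all 24 arrays and triangles the 22 arrays left without the pair of low 5' signal. ELO1 in the C-limited mutant, at -1.34, lies farthest from 0, and triangles and circles differ only under N limitation, as for FAS2 in the Reference, at -0.34 and -0.10.

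FAS1 was lower and ELO1 higher in the snf1 mutant under C limitation at both levels of inositol-choline. Between the strains the excess of 3' signal also differed, without overlap, in the C-limited high and N-limited low groups. At the low level under C limitation, 6 of 10 genes differed between mutant and Reference, ELO1, ELO2, ELO3 and ACB1 higher and FAS1 and FAA1 lower in the mutant, where 34.4% of all genes were called, 20.2% higher and 14.3% lower. At the high level 3 were called, ELO1 higher and ACC1 and FAS1 lower, where 32.8% of all genes were called, 18% higher and 14.8% lower; 8 were called from the compared arrays alone (58.5%). Under N limitation at the low level 4 were called, ACB1 higher and ACC1, FAS1 and FAA1 lower, against 9.73% of all genes, 4.72% higher and 5.01% lower. From the compared arrays alone 7 were called (45.9% of all genes), now also FAS2 (-0.20, adjusted p = 0.000476), ELO1 (0.18, adjusted p = 0.00742) and ELO3 (0.18, adjusted p = 0.00126). These arrays pair by replicate number, and adding that number as a block to the same arrays left 7 (51% of all genes). At the high level FAA1 was called lower, 1 of 10 against 4.15% of all genes, 2.17% higher and 1.98% lower. From the compared arrays alone 0 of 10 were called (0.0918% of all genes), and the block on those arrays gave 1 (3.93% of all genes), OLE1 at 0.30 with an adjusted p of 0.0341, while FAA1 then had 0.0504. Without replicate 2 of the N-limited mutant at the low level 0 of 10 were called there, and the FAA1 call at the high level was lost in 4 of the 24 fits that left out 1 array, each an array compared (0.0534 to 0.14).

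FAA1 was higher under N than under C limitation in all 4 comparisons. HFA1 was higher and OLE1 lower where they passed the test. The excess of 3' signal also differed with the limitation, without overlap, in the Reference at the high level and the mutant at the low level. In the Reference at the low level 8 of 10 were called between N and C limitation, ACC1, HFA1, ELO1, ELO2, ELO3 and FAA1 higher and FAS1 and OLE1 lower under N limitation, where 44.3% of all genes were called, 25.1% higher and 19.1% lower. In the Reference at the high level 7 were called (52.3% of all genes, 31.4% higher and 20.9% lower), HFA1, ELO1 and FAA1 higher and ACC1, FAS1, OLE1 and ACB1 lower. In the mutant at the low level 5 were called, FAS1, ELO2, ELO3 and FAA1 higher and ELO1 lower, against 30.6% of all genes, 15.3% in each direction. From the compared arrays alone 9 were called (62.9% of all genes), adding ACC1 (adjusted p = 0.0122), HFA1 (0.0195), FAS2 (0.000466) and OLE1 (0.0102). Those arrays pair by number too, and the block left 9 (66.5% of all genes). In the mutant at the high level 7 were called (48.6% of all genes, 26.5% higher and 22.1% lower), ACC1, HFA1, ELO1 and FAA1 higher and ELO2, ELO3 and ACB1 lower; from the compared arrays alone 4 were (30.4%), and 4 without replicate 1 of the N-limited group, which is an array of the pair. In the mutant at the low level the FAS1 call was lost in 15 of the 24 fits that left out 1 array and the ELO2 call in 5, and 3 were left without replicate 2 of the C-limited group. Each group enters 3 of these 12 comparisons, so an array that deviates moves 3 values at once.

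**Figure D3:**
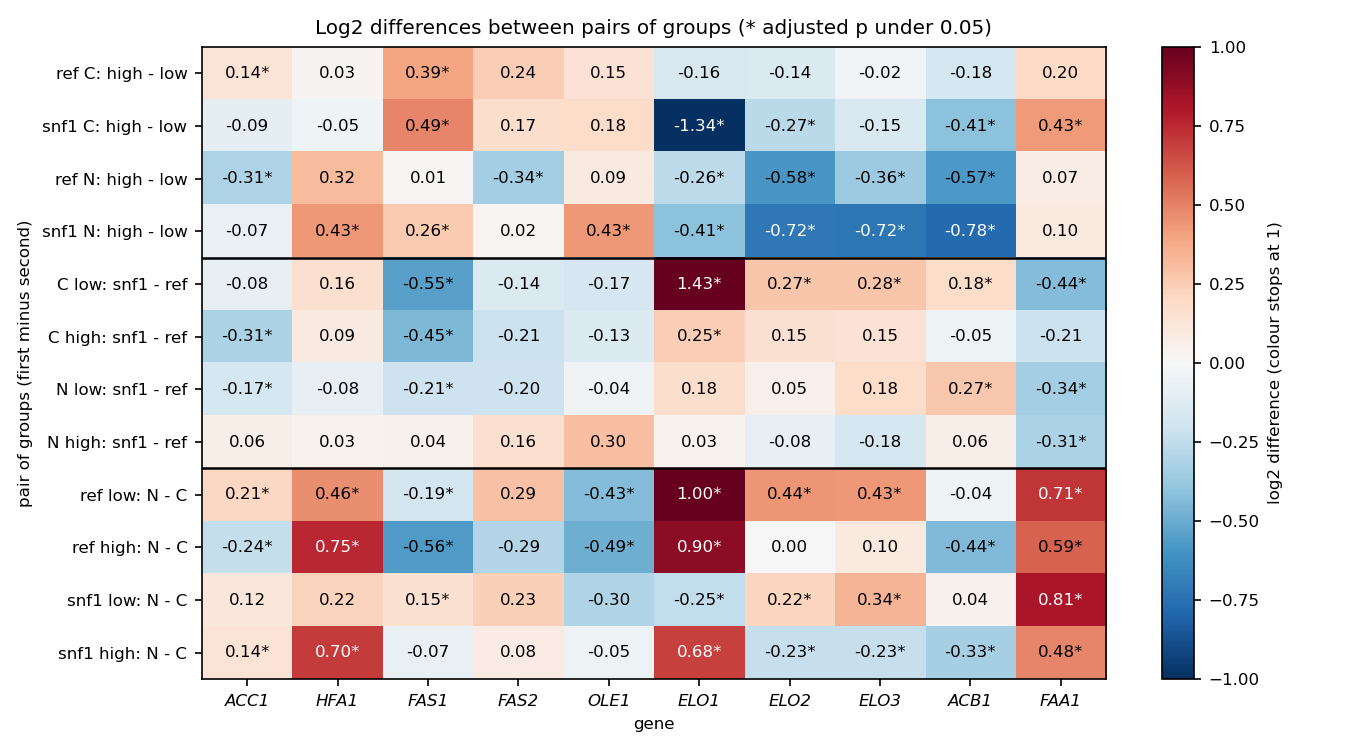
Log2 difference of each gene in the 12 comparisons of groups, written in each cell, with an asterisk where the adjusted p was under 0.05; the colour scale stops at 1 in both directions. The ELO1 column holds both extremes, 1.43 for SNF1 deletion under C limitation at the low level and -1.34 for inositol-choline in the C-limited mutant.

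ELO1, the elongase that acts on medium chains, changed most in the C-limited mutant. On its arrays ELO1 stood at 9.91, 9.97 and 9.92 at the low level and at 8.59, 8.61 and 8.58 at the high level. The C-limited Reference read 8.52, 8.47 and 8.53 at the low level and 8.32, 8.34 and 8.38 at the high level. None of these 4 groups overlapped another, and the mutant at the low level stood far above the rest. ELO1 was 2.53-fold lower at the high level in the mutant (-1.34 ± 0.07, SE, n = 3 arrays per group here and below, limma adjusted p = 3.58e-11). In the Reference the difference was -0.16 (adjusted p = 0.131, and 0.0063 without the pair). The interaction term between strain and level was -1.18 ± 0.10 (adjusted p = 1.34e-07; 4.15% of all genes were called for it, 2 of the 10 being ELO1 and ACC1). The same values seen from the other side put ELO1 2.69-fold higher in the mutant at the low level (1.43, adjusted p = 2.89e-12) and 0.25 higher at the high level (adjusted p = 0.00872).

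Under N limitation ELO1 differed less between strains. The Reference gave 9.59, 9.50 and 9.42 at the low and 9.18, 9.22 and 9.32 at the high level, a difference of -0.26 (adjusted p = 0.00843). The mutant gave 9.70, 9.71 and 9.64 and then 9.06, 9.43 and 9.33, a difference of -0.41 (adjusted p = 1.81e-04). Low and high arrays did not overlap in either strain, and neither call held from the N-limited arrays of 1 strain alone (adjusted p = 0.116 and 0.0554). N limitation raised ELO1 2-fold in the Reference at the low level (adjusted p = 3.29e-10) and 1.86-fold at the high level (adjusted p = 1.77e-09). In the mutant the difference was -0.25 at the low level (adjusted p = 0.00881) and 0.68 at the high level (adjusted p = 1.36e-07). The interaction of strain and limitation at the low level was -1.25 ± 0.10 (adjusted p = 9.98e-09), where 19.5% of all genes and 2 of the 10, ELO1 and FAS1, were called. Ordered by mean, ELO1 rose from the C-limited Reference at the high level (8.35 ± 0.03, SD) to the C-limited mutant at the low level (9.93 ± 0.04), and of neighbours in that order only the N-limited mutant at the high level overlapped the groups beside it, which are those of the N-limited Reference.

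ELO2 and ELO3, the elongases that make very long chains for sphingolipids, moved alike. Their group means correlated at r = 0.96 over the 8 groups, as a description; both genes were read on the same arrays. ELO2 in the N-limited Reference stood at 9.05, 9.04 and 9.02 at the low level and at 8.38, 8.47 and 8.53 at the high level. In the N-limited mutant it stood at 9.10, 9.09 and 9.08 and then at 8.15, 8.42 and 8.55. Low and high arrays were clear of each other in both strains, with the lowest value on a library of the pair. ELO2 was lower at the high level in the Reference (-0.58 ± 0.08, adjusted p = 2.54e-05) and in the mutant (-0.72, 1.64-fold, adjusted p = 1.42e-06). Without the pair these were -0.54 and -0.61.

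ELO3 in the N-limited mutant stood at 9.91, 9.95 and 9.99 at the low level and at 9.12, 9.13 and 9.44 at the high level. In the N-limited Reference it went from 9.80, 9.75 and 9.75 to 9.33, 9.37 and 9.53. The arrays of low and high level did not overlap in either strain. The differences were -0.72 ± 0.07 in the mutant (1.65-fold lower, adjusted p = 8.17e-07) and -0.36 in the Reference (adjusted p = 0.00128, and 0.0678 from the compared arrays alone). Under C limitation ELO3 differed by -0.02 in the Reference and -0.15 in the mutant, neither called. The ELO3 difference in the mutant was called from the compared arrays alone (adjusted p = 0.00269) and without the pair (0.0479). ELO2 differed under C limitation by -0.14 in the Reference, not called with all arrays (adjusted p = 0.0253 without the pair). In the C-limited mutant ELO2 differed by -0.27 (adjusted p = 0.0149), a call lost without replicate 1 of the low or replicate 3 of the high level (0.0569 and 0.0611).

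In the mutant the differences of the elongases between the high and low level of inositol-choline varied with the limitation. There the interaction of limitation and level was -0.45 ± 0.11 for ELO2 (adjusted p = 0.00706) and -0.57 ± 0.10 for ELO3 (adjusted p = 7.8e-04), larger falls under N limitation. For ELO1 it had the opposite sign, 0.93 ± 0.10 (adjusted p = 1.97e-06), the larger fall being under C limitation. In all 4 of the 10 genes were called for it in the mutant, with ACB1, against 15% of all genes. In the Reference 4 were called too, ACC1, FAS1, ELO2 and ACB1, against 4.94% of all genes, with ELO2 at -0.44 (adjusted p = 0.0227), a call lost in 5 of the 24 fits without 1 array (0.0529 to 0.0765). For strain by inositol-choline under N limitation limma called 0 of the 10, where 2.07% of all genes were called, and 4 had an unadjusted p under 0.05, ACC1, FAS1, ELO3 and ACB1.

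SNF1 deletion raised ELO2 by 0.27 (adjusted p = 0.00777) and ELO3 by 0.28 (adjusted p = 0.00564) under C limitation at the low level, with ELO2 lost without replicate 2 of the Reference (0.0556). N limitation in the Reference at the low level raised them by 0.44 and 0.43 (adjusted p = 8.02e-05 and 6.3e-05). At the high level the same differences were 0.00 and 0.10, not called.

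FAS1, which codes for the beta subunit of the synthase, was highest in the C-limited Reference and lowest in the C-limited mutant at the low level. It stood at 11.54, 11.66 and 11.44 in the Reference at the high level and at 11.21, 11.13 and 11.12 at the low level. The mutant read 11.11, 11.14 and 11.04 at the high and 10.67, 10.61 and 10.54 at the low level. High and low arrays did not overlap in either strain, and the mutant at the high level came up to the Reference at the low level. FAS1 was 1.31-fold higher at the high level in the Reference (0.39 ± 0.06, adjusted p = 5.75e-04) and 1.41-fold higher in the mutant (0.49 ± 0.06, adjusted p = 4.04e-06). SNF1 deletion lowered it 1.46-fold at the low level (-0.55, adjusted p = 2.63e-07) and 1.36-fold at the high level (-0.45, adjusted p = 3.67e-06).

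Under N limitation FAS1 was flatter. The Reference read 10.92, 11.00 and 10.98 at the low and 10.94, 10.96 and 11.04 at the high level, overlapping values that differed by 0.01. The mutant read 10.80, 10.73 and 10.75 and then 10.98, 11.11 and 10.98, a rise of 0.26 (adjusted p = 0.00147, and 0.0508 from the compared arrays alone). In the Reference the interaction of limitation and level was -0.38 ± 0.08 (adjusted p = 0.00929, and 0.0675 from the compared arrays alone); after quantile normalization it was -0.23 (adjusted p = 0.0924). The mutant minus Reference difference was -0.21 at the low level (adjusted p = 0.0239) and 0.04 at the high level, the latter not called. The call was lost without replicate 2 or 3 of the Reference (0.102 and 0.0871) or of the mutant (0.101 and 0.0827). The interaction of strain and limitation was 0.34 ± 0.08 at the low (adjusted p = 0.00415) and 0.49 ± 0.08 at the high level (adjusted p = 1.35e-04, where 20.6% of all genes and 3 of the 10, with ACC1 and ELO3, were called). The N minus C difference of FAS1 in the Reference was -0.19 at the low level (adjusted p = 0.0118, lost without replicate 1 of either group, 0.0599 and 0.0542) and -0.56 at the high level (adjusted p = 1.01e-07).

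FAS2, the alpha subunit of the same enzyme, had 1 call in the 12 comparisons, but 8 without the pair and 7 from the compared arrays alone. Its C-limited Reference values were 10.59, 10.57 and 10.62 at the low and 10.83, 10.93 and 10.74 at the high level, which did not overlap. The difference of 0.24 had an adjusted p of 0.21, but 4.56e-04 without the pair. FAS2 was most spread in 1 group: the N-limited Reference at the high level read 10.06, 10.74 and 10.82, with the low value on the pair's array. The call itself, -0.34 in the N-limited Reference from 10.87, 10.91 and 10.87 (adjusted p = 0.0464), was lost in 19 of the 24 fits that left out 1 array, and without the low array the difference was -0.10 (adjusted p = 0.304). In the mutant FAS2 lay at 10.40, 10.49 and 10.45 under C limitation at the low level and at 10.63, 10.60 and 10.63 at the high level, 0.17 apart and not overlapping (adjusted p = 0.352, and 0.00455 without the pair). The other calls without the pair were for SNF1 deletion at both levels under C limitation (-0.14 and -0.21, adjusted p = 0.0132 and 0.00068) and at the low level under N limitation (-0.20, adjusted p = 0.00278). N limitation gave 0.29 in the Reference at the low level (adjusted p = 1.71e-05 without the pair) and, in the mutant, 0.23 at the low and 0.16 at the high level (adjusted p = 3e-04 and 0.0151). FAS1 and FAS2 correlated at r = 0.55 over the 8 group means, and FAS2 and ACC1 at 0.82. These means include the pair's low FAS2 value of 10.06, and both r may depend on it. They were not computed without the pair.

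ACC1, the cytosolic acetyl-CoA carboxylase, had the smallest range and a narrow spread. The N-limited Reference stood at 11.34, 11.41 and 11.38 at the low level and at 11.09, 11.04 and 11.08 at the high level, without overlap. ACC1 was lower there at the high level (-0.31 ± 0.04, adjusted p = 8.37e-05, and 0.06 from the compared arrays alone). The C-limited Reference went the other way, from 11.19, 11.22 and 11.10 to 11.33, 11.34 and 11.25, a rise of 0.14 with an adjusted p of 0.0497. That call was lost in 19 of the 24 fits that left out 1 array and was kept without the pair (0.0083). The interaction of limitation and level in the Reference was -0.45 ± 0.06 (adjusted p = 2.63e-04). In the mutant ACC1 differed by -0.09 under C and -0.07 under N limitation, neither called. Without the pair these were -0.09 and -0.11, both called (adjusted p = 0.0493 and 0.0394).

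SNF1 deletion lowered ACC1 under C limitation at the high level, to 11.03, 11.00 and 10.95 (-0.31, adjusted p = 1.6e-05). At the low level the mutant read 11.04, 11.08 and 11.13, a difference of -0.08 that was not called. Under N limitation the differences were -0.17 at the low level (11.21, 11.19 and 11.21 in the mutant, adjusted p = 0.0162) and 0.06 at the high level (11.20, 11.11 and 11.07), the second not called. The call at the low level was lost in 5 of the 6 fits that left out a compared array (0.0516 to 0.0847). The mutant thus lay below the Reference, with no overlap, in the C-limited high and N-limited low groups. The interaction of strain and limitation at the high level was 0.38 ± 0.06 (adjusted p = 1.97e-04). The interaction of strain and inositol-choline under C limitation was -0.23 ± 0.06, with an adjusted p of 0.0471 that was lost in 18 of the 24 fits without 1 array.

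HFA1, the mitochondrial carboxylase, had the widest spread within groups of the 10. Under C limitation all 12 arrays lay between 7.25 and 7.78. Under N limitation the 6 low-level arrays lay between 7.80 and 8.13 and the 6 high-level arrays between 8.10 and 8.69. No N-limited array was as low as any C-limited one. N limitation raised HFA1 1.68-fold in the Reference at the high level (0.75 ± 0.14, adjusted p = 2.28e-04) and by 0.70 in the mutant (adjusted p = 5.12e-04). At the low level the rise was 0.46 in the Reference (adjusted p = 0.0129, lost without replicate 3 of either group at 0.0915 and 0.063). The highest HFA1 values, 8.57 and 8.69, were those of the pair of low 5' signal. The rise of 0.43 at the high level in the N-limited mutant (adjusted p = 0.0241) was 0.26 without them (adjusted p = 0.0577) and was lost without replicate 2 of the low level (0.0882).

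OLE1, the desaturase on which yeast depends for unsaturated fatty acids, gave 3 calls. The C-limited Reference read 11.38, 11.26 and 10.82 at the low and 11.35, 11.33 and 11.22 at the high level. The N-limited Reference read 10.76, 10.56 and 10.84 and then 10.91, 10.57 and 10.96. High and low overlapped under both limitations, and the differences of 0.15 (95% interval -0.12 to 0.41) and 0.09 (-0.17 to 0.36) were not called. N limitation lowered OLE1 at the low level (-0.43 ± 0.13, adjusted p = 0.00829, 1 array overlapping) and at the high level (-0.49, adjusted p = 0.0031). The first was lost without replicate 1 of the C-limited group (0.0637) or replicate 2 of the N-limited group (0.0511). In the mutant OLE1 stood at 11.04, 10.90 and 11.02 under C limitation at the low level and at 11.17, 11.15 and 11.19 at the high level. These did not overlap and were 0.18 apart, not called with all arrays (adjusted p = 0.323) but called from the compared arrays alone (0.00533). The N-limited mutant gave 10.79, 10.50 and 10.77 and then 11.18, 10.95 and 11.22, a rise of 0.43 (adjusted p = 0.0116) without overlap. It was lost without replicate 2 of the low level (0.073) and from the compared arrays alone (0.0568). Replicate 2 was the lowest of its group in all 4 N-limited groups.

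ACB1, the acyl-CoA binding protein, was lower at the high level in each background, 3 of them past the test. The N-limited mutant read 10.78, 10.86 and 10.80 at the low and 9.94, 10.08 and 10.08 at the high level. The N-limited Reference read 10.54, 10.54 and 10.55 and then 9.80, 10.07 and 10.04. Low and high arrays lay apart in both strains, with the lowest value of each on the pair of low 5' signal. The falls were 1.72-fold in the mutant (-0.78 ± 0.07, adjusted p = 1.22e-07) and 1.49-fold in the Reference (-0.57, adjusted p = 7.44e-06). Under C limitation the mutant fell 1.33-fold, from 10.71, 10.78 and 10.82 to 10.37, 10.35 and 10.36 (adjusted p = 1.87e-04). The Reference went from 10.45, 10.67 and 10.63 to 10.40, 10.36 and 10.47, overlapping in 1 array, a difference of -0.18 (adjusted p = 0.0838, and 0.00522 without the pair). The interaction of limitation and level was -0.40 ± 0.09 in the Reference (adjusted p = 0.0205, 0.118 from the compared arrays alone, and 0.0581 or 0.0509 without replicate 1 of either low-level group) and -0.37 ± 0.09 in the mutant (adjusted p = 0.0116). SNF1 deletion raised ACB1 by 0.27 under N limitation at the low level (adjusted p = 0.0115) and by 0.18 under C limitation (adjusted p = 0.039), where it was 0.12 without replicate 1 of the Reference (adjusted p = 0.234) and was lost without replicate 2 or 3 of the mutant (0.0902 and 0.137). Replicate 2 of the N-limited mutant at the low level was needed for the first of these (0.0605 without it).

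FAA1, a major enzyme that activates imported long-chain fatty acids, followed the limitation. Its 12 N-limited arrays lay between 9.60 and 10.11 and its 12 C-limited arrays between 8.72 and 9.60. N limitation raised it in all 4 comparisons, from 1.40-fold in the mutant at the high level (adjusted p = 7.46e-05) to 1.76-fold in the mutant at the low level (0.81 ± 0.08, adjusted p = 1.89e-07). In the Reference the rises were 1.64-fold at the low (adjusted p = 5.81e-07) and by 0.59 at the high level (adjusted p = 7.22e-06). FAA1 was lowest in the C-limited mutant at the low level, at 8.97, 8.72 and 8.86, below the 9.30, 9.30 and 9.24 of the high level. At the high level FAA1 was 1.34-fold higher there (adjusted p = 9.01e-04). In the C-limited Reference it went from 9.18, 9.43 and 9.25 to 9.60, 9.54 and 9.33, which overlap, 0.20 apart (adjusted p = 0.108, and 0.0257 without the pair). SNF1 deletion lowered FAA1 1.35-fold under C limitation at the low level (adjusted p = 3.02e-04) and by 1.26-fold under N limitation (-0.34, adjusted p = 0.0098, lost without replicate 3 of the Reference, 0.0573, or replicate 2 of the mutant, 0.0541). The difference of -0.21 under C limitation at the high level was not called (adjusted p = 0.0549), but was without the pair (0.0154) and from the compared arrays alone (0.0137).

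Across the 8 group means the 10 genes did not form 1 pattern. FAS1 and ELO1 ran opposite (r = -0.90), as did OLE1 and ELO3 (-0.81), and ACB1 followed ELO2 (0.80). Set beside CHO1, the phosphatidylserine synthase gene and a classical Ino2-Ino4 target, ELO2 had r = 0.93, ELO3 0.87, ELO1 0.77, FAS1 -0.70 and OLE1 -0.79. The other Ino2-Ino4 targets among the 10 had 0.37 (ACC1) and 0.02 (FAS2). Against INO1, the inositol phosphate synthase gene under the same control, r was 0.84 for ACB1, 0.80 for ELO2 0.69 for ELO3 and 0.64 for ACC1, and 0.45 for ELO1, 0.17 for FAS2, -0.33 for FAS1 and -0.44 for OLE1. These are descriptions over 8 points that share arrays, with the pair of low 5' signal included. CHO1 fell at the high level in all 4 backgrounds, with -0.30 in the C-limited Reference and -0.93 to -0.98 in the other 3. ELO1 also fell in those 3 and FAS1 did not fall in any.

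Among 2724 genes with a range of at least 0.54, those most like ELO1 over the 8 group means were TAT1 (r = 0.963), IZH2 (0.959) and GUK1 (0.944). TAT1, an amino acid permease, was dim, with group means of 5.25 to 5.86 against the dim level of 5.59. IZH2, a membrane protein of zinc homeostasis, had group means of 8.40 ± 0.16 (SD) in the C-limited mutant at the low level and 7.20 ± 0.04 at the high level. The gene least like ELO1 was ERG5 (r = -0.992), the sterol desaturase of late ergosterol synthesis, at 9.61 ± 0.13 and 10.56 ± 0.03 in the same groups. Most like FAS1 were UBX2 (0.957), IRA2 (0.938) and RRI2 (0.937). RRI2, a subunit of the COP9 signalosome, stood at 6.66 ± 0.04 in the C-limited Reference at the high level and 6.01 ± 0.01 in the C-limited mutant at the low level, the groups where FAS1 was highest and lowest. Without the pair the nearest to FAS1 were RRI2, PAU9 and ECM21, so UBX2 and IRA2 were not kept. With r taken over the 24 arrays, IRA2 was nearest (0.895), and UBX2 and RRI2 were not kept. For ELO1, TAT1 and IZH2 were kept both ways. The gene least like ELO1 was then ERG11 in place of ERG5, at -0.990 without the pair and -0.968 over the 24 arrays.

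The rest of the pathway was read from 25 further genes, listed by role. Acetyl-CoA supply showed the widest differences. ACS1, the acetyl-CoA synthetase that glucose represses, was 5.21-fold lower in the mutant under C limitation at the low level (-2.38 ± 0.10, adjusted p = 3.47e-13) and 4.56-fold lower at the high level (adjusted p = 1.61e-12). N limitation lowered ACS1 10.8-fold and 14.6-fold in the Reference. ACS2 and ALD6, the other synthetase and the cytosolic aldehyde dehydrogenase that supplies acetate, were higher in the C-limited mutant at the low level, by 0.74 (adjusted p = 0.00476) and 0.38 (adjusted p = 3.03e-04). Under N limitation none of the 3 was called between the strains. In all, 14 of 25 genes were called between the strains under C limitation at the low level (7 higher, 7 lower, against 34.4% of all genes) and 16 at the high level (6 higher, 10 lower, against 32.8%). Under N limitation 3 of 25 were called at the low level (9.73% of all genes) and 2 at the high level (4.15%). From the compared arrays alone, 13 of 25 were called under N limitation at the low level (45.9% of all genes) and 0 at the high level (0.0918%).

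The synthetases and the elongase partners divided likewise. FAA2, the peroxisomal medium-chain synthetase, was lower under N limitation in all 4 comparisons (2.25-fold to 5.88-fold) and lower in the C-limited mutant (-0.74 and -1.16). FAA3, another synthetase, and FAT1, which takes part in fatty acid uptake, were higher under N limitation in all 4, by 0.31 to 0.53 and 0.30 to 0.73. FAA4 was lower in the C-limited mutant (-0.68 and -0.83). IFA38, the ketoreductase of the elongase complex, was lower at the high inositol-choline level in 3 backgrounds (-0.41 to -0.65), and differed by -0.29 in the C-limited Reference (adjusted p = 0.137). In the N-limited mutant its difference was -0.55, and -0.34 without the pair (adjusted p = 3.45e-04). PHS1 and TSC13, the dehydratase and enoyl reductase of that complex, were called in the N-limited mutant, at -0.60 and -0.49, where 1 array of the pair lay lowest (7.21 for PHS1 and 8.37 for TSC13). Without the pair they were -0.24 (adjusted p = 0.00416) and -0.17 (adjusted p = 0.0246). Mitochondrial fatty acid synthesis gave HTD2, its dehydratase, lower at the high level in all 4 backgrounds (-0.21 to -0.45), and ETR1, its enoyl reductase, 2.64-fold and 3.06-fold lower in the C-limited mutant at the low and high level. SCS7, the sphingolipid hydroxylase, was higher under N limitation in the Reference, 2.29-fold and 2.55-fold at the low and high level.

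The regulators were read with the same test. SPT23, which codes for a membrane-bound activator of OLE1, was higher at the high inositol-choline level in all 4 backgrounds, by 0.17 to 0.53. MGA2, which codes for the other, was lower in the C-limited mutant (-0.30, adjusted p = 0.00233, and -0.45, adjusted p = 5.6e-05). Between those groups OLE1 was not called with all arrays. From the compared arrays alone, OLE1 was called lower in the C-limited mutant at the high level (-0.13, adjusted p = 0.0251). The replicate block on those arrays kept that call (adjusted p = 0.0318). Under N limitation at the high level, MGA2 was called higher in the mutant than in the Reference (0.27). OPI1 was lower at the high level in all 4 (-0.20 to -0.64), and INO2 in all but the C-limited Reference (-0.15, adjusted p = 0.11), with -0.39 to -0.67. INO4 was lower at the high level in the C-limited mutant (-0.47, adjusted p = 7.69e-04). For inositol-choline 6 of the 25 genes were called in the C-limited Reference (14.8% of all genes), and 9 each in the N-limited Reference (31.5%), the C-limited mutant (23.4%) and the N-limited mutant (37.2%). In the same order 20, 14, 15 and 13 were called without the pair, where 48.1%, 43.9%, 53.3% and 52% of all genes were. From the compared arrays alone 19, 2, 16 and 6 were called, where 34.2%, 2.57%, 60.6% and 13.5% of all genes were. Between N and C limitation 16 of 25 were called in the Reference at the low level (44.3% of all genes) and 20 at the high level (52.3%). The mutant had 10 at the low level (30.6%) and 14 at the high level (48.6%).

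**Figure D4:**
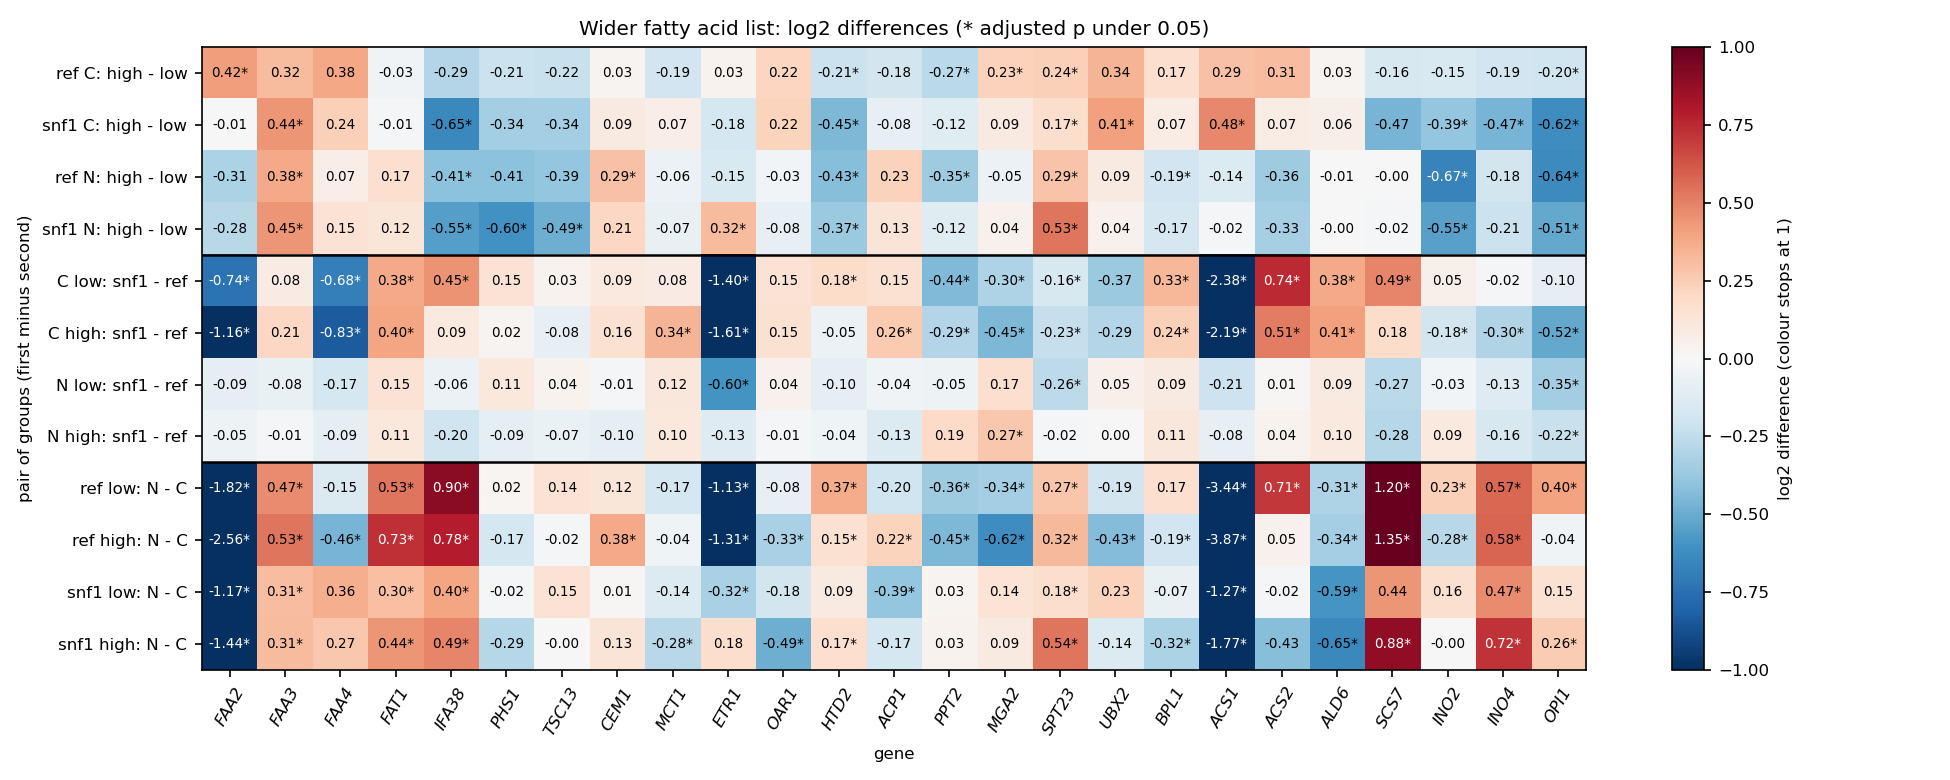
Log2 difference of the 25 further genes of the pathway in the 12 comparisons, written in each cell and grouped by role, with an asterisk where the adjusted p was under 0.05; the colour scale stops at 1 in both directions. ACS1 reaches -3.87 under N limitation in the Reference at the high level, and SPT23 is positive and called in all 4 inositol-choline comparisons.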

How the data were processed

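The deposited values, on a log2 scale, cover 10928 probe sets on 24 arrays. The submitters' processing notes name PLIER as the authors' tool, and the sources used here give neither its version nor how arrays were normalized. The log scale was read from the range, 4.82 to 13.25. Base 2 is an assumption on which every fold rests. No scaling was added.

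Of the probe sets, 7244 had 1 gene symbol, 1 had several and 3683 had none in the annotation; 5498 belonged to S. cerevisiae. The probe set of highest mean was kept per gene, leaving 5449 genes. The dim level, 5.59, is the 95th percentile of the means of 1746 named probe sets without a yeast gene. Groups were taken from titles.

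limma 3.58.1 in R 4.3.3 fitted 1 mean per group to all 24 arrays (16 residual, 18.77 total degrees of freedom). From it came 12 differences between groups and 6 interactions, with Benjamini-Hochberg adjustment over all genes. On simulated data for the C-limited Reference comparison over 5449 genes, 42% of changes of 0.3 and 90% of 0.6 were recovered. The simulation changed 50 genes at each size and gave all groups the same spread per gene. The groups of arrays differ in spread, so these shares need not hold for the data. The number of arrays limits the precision.

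The 10 genes, the lists and the tests were chosen with earlier results of these data known. The text may name the 10 genes, the 25 further pathway genes, SNF1, INO1, CHO1, DAL5, GAP1 and, per member, the 3 genes of highest and 1 of lowest r. Same-numbered arrays deviated together (r over genes above 0.1 in all 3 pairs) for SNF1 deletion under N limitation at the low (0.165, 0.313 and 0.405) and high level (0.901, 0.784 and 0.868) and for limitation in the mutant at the low level (0.173, 0.461 and 0.392). There the block, which was fitted on the compared arrays, is given beside the result and the fit to those arrays without it. A planned search of promoters for motifs was not run, and no sequences were used here.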

Additional observations from a re-analysis of the deposited data

Results flagged for a closer look

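The 15 results below had an interaction term past an adjusted p of 0.05 in limma. By that test of the difference itself, the difference between conditions varied with strain, limitation or level. For strain by inositol-choline, 2 and 0 of the 10 were called under C and N limitation, against 4.15% and 2.07% of all genes. For limitation by inositol-choline, 4 each were called in the Reference and the mutant, against 4.94% and 15%. For strain by limitation, 2 and 3 were called at the low and high level, against 19.5% and 20.6%. No explanation was tested for any of these results. ELO1 gave the 3 widest, -1.18 for strain by inositol-choline under C limitation, -1.25 for strain by limitation at the low level and 0.93 for limitation by inositol-choline in the mutant. All 3 were kept in each fit that left out 1 array, without the pair of low 5' signal and from the compared arrays alone.

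ACC1 had -0.23 for strain by inositol-choline under C limitation, -0.45 for limitation by inositol-choline in the Reference and 0.38 for strain by limitation at the high level. The first of these ACC1 calls was lost in 18 of the 24 fits that left out 1 array. FAS1 had -0.38 for limitation by inositol-choline in the Reference and 0.34 and 0.49 for strain by limitation at the low and high level. The first of these FAS1 calls was lost from the compared arrays alone (adjusted p = 0.0675) and after quantile normalization (0.0924). For limitation by inositol-choline, ELO2 had -0.44 in the Reference and -0.45 in the mutant, ACB1 -0.40 and -0.37, and ELO3 -0.57 in the mutant. The ELO2 call in the Reference was lost in 5 of the 24 fits that left out 1 array. The ACB1 call in the Reference was lost from the compared arrays alone (adjusted p = 0.118). ELO3 also had -0.33 for strain by limitation at the high level (adjusted p = 0.0288), a call lost in 7 of the 24 fits that left out 1 array.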

How the results depend on the processing

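Counts are of the 10 genes called, beside those of the report. Quantile normalization gave 1 for inositol-choline in the C-limited Reference, 0 for SNF1 deletion under N limitation at the high level, and 1 and 2 for strain by inositol-choline under C and N limitation. Leaving out dim genes gave 1 for inositol-choline in the C-limited Reference and 1 for strain by inositol-choline under C limitation, as did leaving out the 6 arrays whose labels disagree for the latter, 1. Without the pair of low 5' signal the counts were 7 and 8 for inositol-choline in the C-limited Reference and mutant, 6 and 7 for SNF1 deletion in the C-limited high and N-limited low groups, 8 for limitation in the mutant at the low level and 2 for strain by inositol-choline under N limitation. All genes were then called at 48.1%, 53.3%, 56.8%, 28.5%, 53.5% and 7.4%, in this order. The compared arrays alone gave 2, 8 and 3 for inositol-choline in the N-limited Reference, the C-limited mutant and the N-limited mutant, 8, 7 and 0 for SNF1 deletion in the C-limited high, N-limited low and N-limited high groups, 9 and 4 for limitation in the mutant at the low and high level, and 2 for limitation by inositol-choline in the Reference, with all genes at 2.57%, 60.6%, 13.5%, 58.5%, 45.9%, 0.0918%, 62.9%, 30.4% and 2.04%.

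With a replicate block (the replicate number, fitted on the compared arrays), the counts were 0, 8 and 0 for inositol-choline in the N-limited Reference, the C-limited mutant and the N-limited mutant, 8 and 7 for SNF1 deletion in the C-limited high and N-limited low groups, 4 for limitation in the Reference at the high level, 9 and 3 for limitation in the mutant at the low and high level, and 1 for limitation by inositol-choline in the Reference. All genes were at 0.257%, 59.7%, 0.184%, 59.1%, 51%, 18.9%, 66.5%, 21.2% and 1.3%. Outside the 3 comparisons whose arrays pair, same-numbered arrays did not deviate together over genes by the rule used. They may still share more than a number. On replicate 1 of each low-level group the spike-in dap read 5.77 to 5.95, against 5.44 to 5.61 on replicates 2 and 3. What same-numbered arrays share was not tested.

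Leaving out each array in turn gave ranges of 1 to 4, 5 to 7, 4 to 6 and 5 to 7 for inositol-choline in the C- and N-limited Reference and the C- and N-limited mutant. SNF1 deletion ranged over 5 to 7 and 3 to 5 under C limitation and over 0 to 5 and 0 to 1 under N limitation, low before high. The 0 at the N-limited low level came without replicate 2 of the mutant. Limitation ranged over 6 to 9 and 7 to 8 in the Reference and 3 to 7 and 4 to 7 in the mutant. Strain by inositol-choline ranged over 1 to 2 and 0 to 2, limitation by inositol-choline over 2 to 6 and 4 to 6, and strain by limitation over 2 to 2 and 2 to 4. The cause of these changes was not tested. Shares of all genes are not given, here or above, for the fits that left out 1 array. They are also not given for quantile normalization, without dim genes or without the arrays whose labels disagree. Whether those counts moved with all genes was therefore not tested. For inositol-choline in the C-limited Reference, 14.8% of all genes were called from all arrays and 48.1% without the pair. No called value of the 10 genes changed sign under any setting. The counts of the 25 further genes without the pair and from the compared arrays alone were chosen after seeing the data. Folds rest on the assumed log base. In simulated data, with the same spread in all groups unlike the arrays, 3 arrays per group recovered 42% of changes of 0.3 on the log2 scale.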
